A study of Mus musculus with 6 samples.

Results

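The cells described here are those that the authors' annotation labels B cells, 487 of the 13052 cells deposited from an immune-enriched preparation of whole mouse brain. Each cell was measured by CITE-seq, in which messenger RNA and DNA-barcoded antibodies bound to the surface are read from the same cell. All mice were naive female C57BL/6. A young control group of 12 week old mice and an aged control group of 72 week old mice received vehicle. A young ABX group of 12 week old mice and an aged ABX group of 72 week old mice received antibiotics, which depleted the gut microbiota. Each group held 6 mice, whose brains were dissociated and stained one by one and then collapsed into 3 pools, each marked by a hashtag antibody. The 12 pools are the replicates throughout. Young and aged pools were loaded in separate wells, so age and well cannot be told apart. Within a well, hashtags 1 to 3 marked control and 4 to 6 ABX pools, so hashtag and treatment cannot be told apart either. Mice were perfused with PBS before dissociation, per the labels' protocols.

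B cells carry a rearranged immunoglobulin on their surface, held in the membrane by the signalling pair CD79A and CD79B, and recognise antigen through it. They arise in bone marrow, pass through pro-B and pre-B stages that express the recombination and surrogate light chain genes, leave as immature IgM+ cells and mature into follicular cells that carry both IgM and IgD. After antigen they may switch to another heavy chain class, become memory cells, or become plasma cells that secrete antibody. In the brain of a healthy mouse B cells are sparse and lie mainly at its borders, such as the meninges, rather than in the tissue itself.

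An antibody in this assay is counted through the DNA tag it carries. The tags whose counts the results on B cells turn on are shown with the 15 bases that identify each, 5′ to 3′ and in lower case with nothing marked by capitals. B220 is the CD45 isoform of B cells, I-A/I-E is MHC class II, CD3 and CD8a mark T cells, and CD38, CD44 and Ly6C are surface proteins of several lymphocyte types.
B220: cctacacctcataat
CD38: cgtatccgtctccta
CD44: tggcttcaggtccta
Ly6C: aagtcgtgaggcatg
I-A/I-E: ggtcaccagtatgat
CD3: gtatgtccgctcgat
CD8a: tacccgtaatagcgt

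The label itself rested in part on the B220 tag. The annotation holds a B cell call for 3143 cells. Among these every cell with more than 17 B220 tags in the young well or more than 7 in the aged well was labelled a B cell. Of the labelled cells, 7 of 244 in the young well and 80 of 243 in the aged well had B220 tags at or below those counts and were labelled by another measure. This rule was read from the deposited columns. B220 is therefore part of how the cells were chosen and is given below only as description.

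RNA values are corrected UMI values of the authors' normalisation, which adjusts each cell to a common depth, so a value of 1 is about 1 molecule in a cell of usual depth. The annotation was made from these same cells, and levels in B cells against other types are therefore described with no test. Cd79a was at 12.1 ± 2.70 (SD, n = 12 pools) per cell in B cells and at 0.246 ± 0.257 in the next type, the Ly6CLow myeloid cells. Its lowest, median and highest B cell pools were at 7.42, 12.7 and 15.7. Cd79b was at 6.66 ± 1.64 against 0.312 ± 0.185 in border-associated macrophages (BAM). Ms4a1, which encodes CD20, was at 4.05 ± 1.25 against 0.0966 ± 0.146 in Ly6CLow cells. Ighd, the constant region of IgD, was at 2.09 ± 0.809 against 0.0411 ± 0.009 in microglia. For all 4 genes the 12 B cell pools lay above every pool of the type named. On GRCm38 the genes lie at chr7:24897497-24901858 (Cd79a), chr11:106311341-106314562 (Cd79b), chr19:11249679-11266149 (Ms4a1) and chr12:113407535-113416324 (Ighd), with positions from RefSeq's GRCm38.p6 annotation.

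The 20 genes with the largest ratio of the B cell level to the highest level in another type were nearly all of the B lineage. Fcer2a, which encodes the low-affinity IgE receptor CD23, led with a ratio of 230, from a level of 0.533 ± 0.298 in B cells. Fcmr, a receptor for IgM, had a ratio of 55.3, Ighd at 50.8, Cd79a at 49.4 and Ms4a1 at 41.9. The transcription factors of B cell identity Pax5, Ebf1, Spib and the coactivator Pou2af1 had ratios of 38.7, 25, 18.6 and 27.7. The lambda constant genes Iglc3, Iglc2 and Iglc1 had ratios of 41.7, 30.1 and 17.2, and Tnfrsf13c, the receptor for the survival factor BAFF, 18.6. Others were Klk1 at 41.0, Scd1 at 39.1, Fcrla at 28.6, Mzb1 at 21.4, Cd79b at 21.3 and Vpreb3 at 17.1. In 18 of the 20 the B cell pools did not overlap those of the next type; Klk1 and Vpreb3 were the exceptions.

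By list, all 15 B cell identity genes, 9 of 12 mature follicular genes, 9 of 10 immunoglobulin constant genes in the table and 9 of 16 B lineage transcription factors were highest in B cells among the types. The same held for 484 of 6394 genes at a level of at least 0.1 in B cells, or 7.57%. Of the B cell receptor signalling genes 6 of 16 were highest in B cells; the rest were shared with other types, such as the kinase Lyn, highest in microglia. MHC class II was split by gene: H2-Ob, H2-Oa and H2-DMb2, which encode the peptide-loading modulators, and the regulator Ciita were highest in B cells, while the peptide-presenting chains were not, with H2-Aa at 19.4 ± 3.60 in B cells and 50.5 ± 16 in Ly6CLow cells. None of 14 cell cycle genes or 18 interferon response genes was highest in B cells.

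The promoters of B lineage genes were searched for an octamer, ATGCAAAT or its reverse complement ATTTGCAT, and for an EBF motif, TCCC and GGGA parted by any 2 bases, on both strands. Both motifs belong to factors known from B cell genes, and no promoter held both. RefSeq promoter windows were found for 15 of 27 genes asked, and each motif stood in 1 of the 15 (6.67%), against 1.97% of 27025 genes for the octamer and 1.06% for the EBF motif. The 2 stretches are shown as the places where a B lineage promoter held such letters, each with the 100 bases before the start site on GRCm38.p6, the motif in capitals and all else in lower case. The Vpreb3 stretch lies at chr10:75948200-75948299 on the plus strand and the Cd22 stretch at chr7:30879029-30879128 on the minus strand. A match is a description of the letters only.
Vpreb3: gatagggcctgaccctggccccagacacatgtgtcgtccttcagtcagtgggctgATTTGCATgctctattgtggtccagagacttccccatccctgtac
Cd22: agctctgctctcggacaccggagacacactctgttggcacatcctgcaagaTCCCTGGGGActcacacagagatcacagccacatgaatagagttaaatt

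The label did not describe a single population. The authors' own clustering placed 318 of the 487 cells (65.3%) in cluster 5, where 317 had Cd79a above 0, and 169 (34.7%) in other clusters, where 50 had. Of the 343 cells of any label in cluster 5, 92.7% were labelled B cells. Mean Cd79a was 17.7 in the cluster 5 B cells, 5.22 in the 27 of cluster 3, 3.83 in the 23 of cluster 4, 1.24 in the 54 of cluster 1, 1.07 in the 14 of cluster 2, 0.526 in the 19 of cluster 11 and 0.0588 in the 17 of cluster 7.

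Outside cluster 5 the leading genes were not those of B cells. The 23 cells of cluster 4 had the neutrophil alarmins S100a8 at 478 and S100a9 at 686 per cell, and their leading gene by ratio was Camp. The 27 cells of cluster 3 had Lyz2 at 43.4, a myeloid lysozyme, and the lectins Mgl2 and Cd209a, with a median of 20213 raw UMIs. The 14 cells of cluster 2 had Ccl5, a chemokine of T and NK cells, at 67.3, led by the T cell receptor gene Trbc2. The 17 cells of cluster 7 had Ccl5 at 66.6, led by the granzyme gene Gzma. All 19 cells of cluster 11 expressed Siglech (17.6 per cell), Bst2 (38.5), Tcf4 (13.6) and Ccr9 (7.95), and only 2 had Cd79a. In the young well the 16 cells of cluster 11 held a median of 41 Siglec-H tags, against 6 in the 171 cluster 5 B cells, and a median of 28.5 B220 tags, against 44. They made up 76% of the cluster's 25 cells, and Klk1, high in the ratio ranking above, came from them. The 54 cells of cluster 1 are described with depth below.

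**Figure D1:**
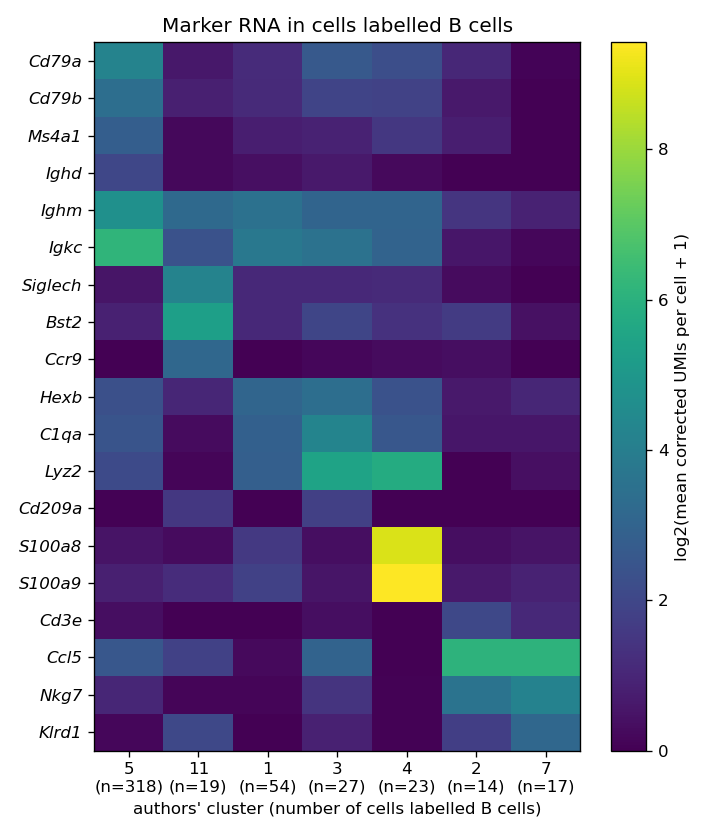
Mean RNA of 19 marker genes (rows) in cells labelled B cells, by the authors' cluster (columns, with the number of cells), as log2 of the mean corrected UMI value plus 1. Cd79a, Cd79b, Ms4a1 and Ighd are highest in the 318 cells of cluster 5, S100a8 and S100a9 in cluster 4, Siglech, Bst2 and Ccr9 in cluster 11, and Ccl5 and Nkg7 in clusters 2 and 7.

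The share of B cells that lay in cluster 5 was 75.0% ± 3.76 in young control pools, 65.3% ± 3.75 in young ABX, 65.0% ± 20 in aged control and 52.9% ± 6.57 in aged ABX (SD, n = 3 pools each). The aged mean was 11.2 points below the young mean, with a two-sided exact permutation p of 0.119 over 6 pools against 6. Young control and young ABX pools did not overlap, and p = 0.1 by the exact permutation test is the smallest that 3 pools against 3 allow.

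Cluster 5 itself held cells with RNA of T cells. The summed value of 12 T cell marker genes was at least 2 in 41 of 147 aged and 9 of 171 young cluster 5 B cells. By pool the percentages were 0, 0 and 5.26 in young control, 0, 12.5 and 8.05 in young ABX, 23.1, 20 and 30.2 in aged control, and 18.2, 20 and 37.5 in aged ABX. Every aged pool lay above every young pool. These cells held both sets of surface tags: in the aged well the CD8a mean was 88.7 tags against 1.04 in the remaining cluster 5 B cells, the CD3 mean 19.4 against 2.43, and B220 9.85 against 9.33. Their median depth was 11309 raw UMIs against 6081.5 in the aged well and 9587 against 4073.5 in the young well. The authors' table holds only cells called as hashtag singlets, a call that leaves cells joined within 1 pool, and whether these are 2 cells in 1 droplet was not tested. Results below that rest on cluster 5 are therefore given without them, as 268 cells, 162 young and 106 aged, called T-free below.

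Some barcodes occurred in both wells. Of the 487 B cells 23 (4.72%) carried a barcode also found in the other well, against 95 of 12565 other cells (0.756%). Of the 23, 16 were in the aged well, and each had a copy in the young well with the same hashtag number. The aged copies held 377 to 1134 raw UMIs (median 735) and the young copies 26836 to 75151, a ratio of 59.9 to 81.6. The aged copies held 70.8 to 74.0% of the antibody tags of the young copies. The copy in the young well was labelled a B cell in 7 pairs, Ly6CLow in 4, Ly6CHigh in 2, Ly6C+Ly6G+ in 2 and microglia in 1. The gene calls with age and the antibody calls between depth classes are also given without these cells in the closing part.

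RNA depth separated the labelled cells into 2 sets. Under 2000 raw UMIs lay 71 B cells (14.6%), and at least 2000 were found in 416. Few cells lay near the threshold, with 2 within 200 UMIs below it and 2 within 200 above. Of the 71, 47 (66.2%) were in cluster 1, 11 in cluster 4 and 5 in cluster 5, while 313 of the 416 (75.2%) were in cluster 5. Cd79a was above 0 in 17 of the 71 (23.9%) and in 350 of the 416 (84.1%). All 71 had more genes above 0 in the corrected table than were detected in the raw reads, so part of their RNA profile was written by the correction. In cluster 1 the median was 455.5 genes detected and 1341 genes above 0 after correction.

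Against deeper B cells, the antibody tags of the low-depth cells went the other way in the aged well only. In the aged well the 16 low-depth B cells with a shared barcode had a median of 11447 tags and the 41 others of low depth 3263, against 1028 in the B cells of at least 2000 UMIs and 203 in cells of all other labels. In the young well the medians were 3286 in 14 low-depth cells, 4349 in deeper B cells and 1324 in cells of other labels. The B220 threshold is a count of tags, so a cell with many tags of every antibody can pass it. The part of tag depth in the label was not tested.

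**Figure D2:**
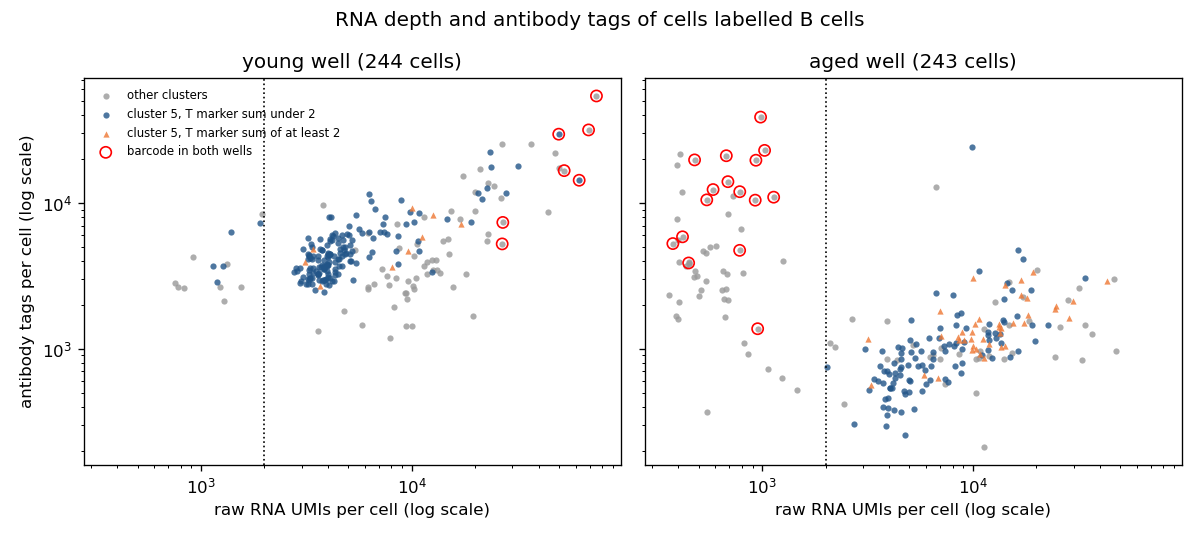
Antibody tags per cell (vertical, log scale) against raw RNA UMIs per cell (horizontal, log scale) for the 244 B cells of the young well and the 243 of the aged well, with the 2000 UMI threshold dotted. Blue points are cluster 5 cells with a T marker sum under 2, orange triangles cluster 5 cells with a higher sum, grey points other clusters and red rings barcodes found in both wells; 16 rings lie at the upper left of the aged panel.

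Low-depth B cells were mostly aged. They made up 3.13, 0 and 0% of B cells in the young control pools, 0, 7.69 and 9.52% in young ABX, 46.7, 13.8 and 1.92% in aged control and 20.8, 8.82 and 40.5% in aged ABX. The ages overlapped, through aged control pool 3 and aged ABX pool 2. The aged mean was 18.7 points higher (exact permutation test, two-sided, p = 0.0195). Both values include the 16 aged B cells with a shared barcode, all under 2000 UMIs. Of these, 8 lay in aged control pool 1 and 6 in aged ABX pool 3. Leaving out young control pool 2 or 3 or young ABX pool 1 raised p to 0.0541 each time. With antibiotics the share differed by 4.70 points in young and 2.60 points in aged mice, with exact permutation p of 0.4 and 0.8. The aged difference was −0.90 without aged control pool 2, −6.83 without aged control pool 3 and −5.97 without aged ABX pool 3.

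Within pools, cells under 2000 UMIs were compared with those of at least 2000. The RNA values share the total that split the classes, so this fit describes the low-depth cells and shows no cell type. The 4 pools with at least 5 B cells in each class were young ABX 3, aged control 1, aged ABX 1 and aged ABX 3. Of 5863 genes, 1211 (20.7%) passed a Benjamini-Hochberg adjusted p of 0.05 in limma with pool as a block, 78 raised (1.33%) and 1133 lowered (19.3%), with a median log2 change over all genes of −0.96. Without the third aged ABX pool 2 genes passed and without the first 736.

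Among the identity genes 10 of 15 were lowered and none raised, with a median log2 change of −3.04. Cd79a was at 5.58, 0, 0 and 1.23 in the low-depth cells of those pools and at 14.6, 15.8, 9.37 and 14.4 in the deeper cells, so the classes did not overlap. Its log2 change was −4.67 (SE 0.781, limma adjusted p = 0.0193), and the adjusted p was 0.0653 without the third aged ABX pool. Cd79b changed by −3.35, Ms4a1 by −3.40 and Ighd by −3.41, each with a limma adjusted p of 0.0193. MHC class II fell in 8 of 10 genes, immunoglobulin constant genes in 6 of the 6 tested and T cell markers in 10 of the 10 tested, the chemokine gene Ccl5 most clearly (−5.60, limma adjusted p = 9.28e-05). Of the microglia markers 3 of 12 were raised and none lowered, with P2ry12, a purinergic receptor of microglia, at 1.75, 2.36, 1.80 and 2.43 in low-depth and 1.60, 1.19, 0.211 and 0.227 in deeper cells (log2 +1.66, limma adjusted p = 0.0399). Raised genes by the naming rule included Scoc, Tcn2, Plxdc2 and Ttr, the transthyretin gene of choroid plexus, whose values were 4.92, 5.64, 126.8 and 4.63 in low-depth cells and 2.19, 1.44, 2.05 and 2.34 in deeper ones.

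Of 34 antibodies, 1 (2.94%) passed between the depth classes in edgeR. CD8a was at 3.58, 5.07, 5.40 and 9.40 tags per low-depth cell and 28.7, 10, 34.8 and 24.9 per deeper cell, with no overlap. Its log2 change relative to all tags was −3.54 (edgeR adjusted p = 0.0398), and no antibody passed without aged ABX 1, without aged ABX 3 or without aged control 1.

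Surface antibodies separated B cells from other types chiefly by B220, which the label used. B220 was at 43.0 ± 4.36 tags per cell in young B cells (SD, n = 6 pools) against 6.77 ± 0.952 in innate lymphoid cells, the next type. In the aged well B220 was at 10.3 ± 2.02. CD38, an ectoenzyme of mature mouse B cells, was at 572 ± 52.9 tags in young B cells against 396 ± 76.9 in BAM, and at 183 ± 33.9 in aged B cells. Among values looked up after they were seen, I-A/I-E was at 1451 ± 371 tags in young B cells, below Ly6CLow cells at 3114 ± 601, and CD24 was at 1100 ± 177, below Ly6C+Ly6G+ cells at 1309 ± 134. CX3CR1 tags also ranked high in B cells over all pools, with 1 cell of the first aged ABX pool holding 22467 of its 24273 tags as CX3CR1. CXCR4, KLRG1 and CD335 ranked high by ratio at levels under 1 tag per cell and are not among the 31 antibodies the study lists for its staining pool.

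Maturation was read in the 268 cluster 5 B cells with a T marker sum under 2. Shares of cells above 0 are given with the share in CD8+ T cells as background, with exact 95% binomial intervals that cover counting error only. Median depth was 4073.5 UMIs in these young and 6081.5 in these aged cells, against 8287 and 6927.5 in CD8+ T cells. Shares rise with depth, so no difference between ages is read from them.

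Most of these cells held IgM and IgD RNA and little RNA of switched classes. Ighd was above 0 in 206 of 268 cells (76.9%, interval 71.3 to 81.8%), against 0.962% of CD8+ T cells. Ighm above 0 has a high background, 40.6% of young and 35.0% of aged CD8+ T cells, so its level is given instead. In the 62 cells with Ighd at 0, Ighm was at a median of 26 and at 3 to 61, where CD8+ T cells with Ighd at 0 had a median of 0 and a highest value of 1111. The summed switched constant genes Igha, Ighg2b, Ighg2c and Ighg3 reached 5 in 1 of 268 cells (0.373%). Kappa light chain RNA exceeded lambda in 241 cells (89.9%, interval 85.7 to 93.3%) and lambda exceeded kappa in 25 (9.33%). Ccr7, the homing receptor for lymphoid tissue, was above 0 in 80.2% of young and 71.7% of aged cells, against 27.4 and 4.82% of CD8+ T cells, which can use the gene themselves. CD23 (Fcer2a) was above 0 in 42.0 and 22.6% and the complement receptor Cr2 in 29.0 and 16%, where CD8+ T cells had neither Fcer2a nor, in the aged well, Cr2.

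Earlier and later stages were scarce. The recombination and surrogate light chain genes Rag1, Rag2, Vpreb1, Igll1 and Dntt were above 0 in 10 of 268 cells (3.73%, interval 1.80 to 6.75%) and in 6 of 728 CD8+ T cells (0.824%). Vpreb3, which continues past the pre-B stage, was above 0 in 70.4% of young and 52.8% of aged cells, against 0 and 0.161% of CD8+ T cells. Cd93, a marker of transitional cells, was above 0 in 7.41 and 15.1%, against 5.66 and 3.05%. Mki67, a cell cycle gene, was above 0 in 4.10% of the 268 cells and in 6.04% of CD8+ T cells. No cell reached 10 for Jchain, the joining chain of plasma cells, but 2 cluster 5 B cells with T marker sums of 15 and 22, at 46 and 25 of Jchain, are outside these 268. The ectoenzyme gene Nt5e, often used as a memory marker, was above 0 in 0 of 162 young cells, where a count of 0 allows up to 1.85% of cells with a value above 0 at this depth and sets no limit on cells that express it, and in 19.8% of aged cells, where CD8+ T cells were at 21.7 and 22.3%.

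**Figure D3:**
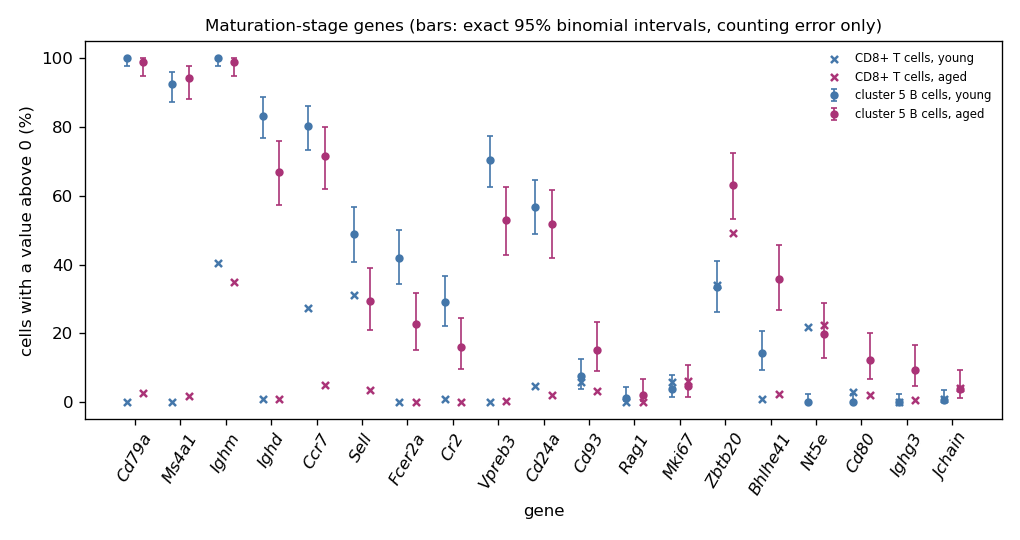
Percentage of cluster 5 B cells with a T marker sum under 2 that had a value above 0 for each of 19 stage genes, young (162 cells, blue) and aged (106 cells, purple), with exact 95% binomial intervals; crosses give CD8+ T cells of the same well. Cd79a, Ms4a1, Ighm and Ighd are above 0 in most cells, while Rag1 and Jchain lie near 0.

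B cells made up 2.48, 3.03 and 1.98% of all cells in the young control pools and 3.34, 1.45 and 7.92% in young ABX. In aged mice they made up 3.38, 2.77 and 3.92% in control and 2.60, 2.45 and 7.76% in ABX. A single ABX pool at each age, the third, stood above all others, and the groups overlapped in both ages. The means were 2.50% ± 0.523 and 4.24% ± 3.33 in young control and ABX, and 3.36% ± 0.575 and 4.27% ± 3.03 in aged control and ABX (SD, n = 3 pools each). In edgeR the log2 difference with antibiotics was 0.79 in young (SE 0.605, adjusted p = 0.736) and 0.34 in aged mice (SE 0.599, adjusted p = 0.727), where 0 of 10 types (0%) passed in either age, 0 with an unadjusted p under 0.05. Without the third young ABX pool the young difference was −0.06, and without the third aged ABX pool the aged difference was −0.41. The antibiotic effect did not pass a difference between ages (−0.45, SE 0.849, edgeR adjusted p = 0.867). Aged against young differed by 0.21 (SE 0.424, edgeR adjusted p = 0.697), where 1 of 10 types (10%) passed. Two-sided exact permutation tests of the same percentages gave 0.6 for young, 1 for aged, 0.415 over both ages and 0.600 for age. In a tissue preparation, a share depends on all other types recovered.

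**Figure D4:**
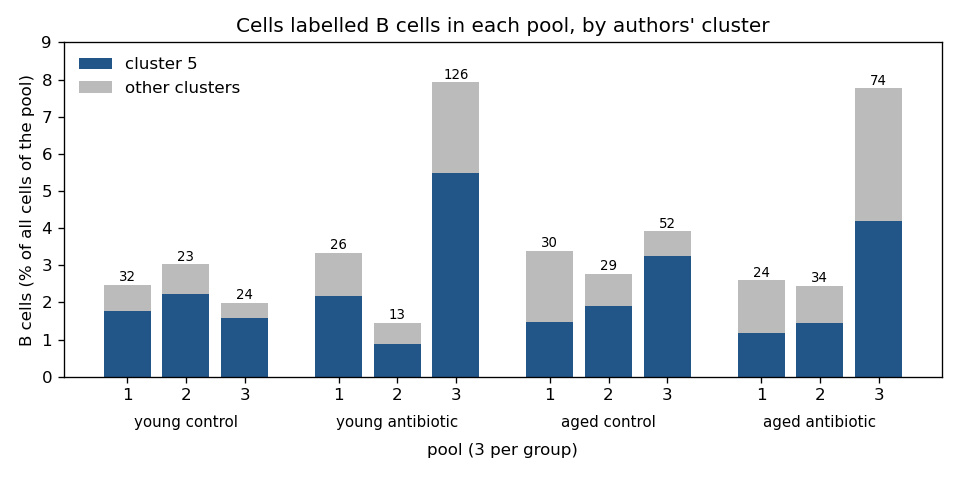
B cells as a percentage of all cells in each of the 12 pools, with cluster 5 in blue, other clusters in grey and the number of B cells above each bar. The third ABX pool of each age reaches 7.92 and 7.76%, and the other 10 pools lie between 1.45 and 3.92%.

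No gene passed for antibiotics in B cells. Of 6394 genes, 0 (0%) passed a limma adjusted p of 0.05 in any of 4 contrasts, namely the young effect, the aged effect, their mean and their difference. Counting genes by p before adjustment, at 0.05, gave 338, 168, 249 and 249. No other tool was run on these values, which are not counts. The pools held 13 to 126 B cells. Cd79a was at 13.3, 14.4 and 15.7 in young control and 11, 12.2 and 13.8 in young ABX pools (log2 −0.23, SE 0.199), and at 8.40, 14.2 and 14.8 in aged control and 7.42, 11.5 and 9.07 in aged ABX (−0.39, SE 0.199). Ighd differed by 0.27 in young and 0.08 in aged mice (SE 0.239 each). All 4 marker genes missed the threshold in both ages.

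By the naming rule the genes of smallest p are given although they did not pass. Ctla2a, an inhibitor of cathepsin L, was at 0.469, 0 and 0.333 in young control and 2.62, 1.77 and 0.635 in young ABX pools, with no overlap (log2 2.41, SE 0.571, limma adjusted p = 0.880). The 17 cells of cluster 7, led by Gzma, held 48.5% of the Ctla2a value summed over all B cells, and numbered 3, 0 and 2 in the young control and 5, 0 and 5 in the young ABX pools. In T-free cluster 5 cells Ctla2a was at 0 in 11 pools and at 0.0875 in the third young ABX pool. Bcl7a, a chromatin remodelling subunit on the pro-B and pre-B list, was at 0.433, 0.483 and 0.596 in aged control and 0.0417, 0.0882 and 0.216 in aged ABX pools, also with no overlap (−1.56, SE 0.341, limma adjusted p = 1.00). The complement gene C1qb, a microglia marker, was at 3.31, 1.30 and 1.92 in young control and 5.46, 3.54 and 7.37 in young ABX pools, with no overlap. None of the 26 lists had a member past the threshold, including the 15 identity and 12 follicular genes, whose medians were 0.08 and −0.26 in young and −0.36 and −0.29 in aged mice, against 0.05 and −0.0017 over all genes.

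Of 34 antibodies, 0 (0%) passed for antibiotics in edgeR in any of the 4 contrasts, and before adjustment 1, 1, 2 and 1 had a p under 0.05. Calls by DESeq2 were 0 in each as well. In young mice CD103 differed by −1.82, CD86 by 1.08 and PD-1 by 1.87 on the log2 scale, each with an edgeR adjusted p of 0.641. CD103 differed by 0.13 in cluster 5 and 0.15 in T-free cells. In aged mice CX3CR1 differed by 3.24, and by −0.41 without the first aged ABX pool, which held the single cell described above. CD38 differed by −1.04 and CD44 by −1.03 in aged mice, and in cluster 5 B cells alone by 0.01 and 0.28.

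A small number of genes differed between the aged and young wells over all B cells. Of 6394 genes, 22 (0.344%) passed in limma, 11 raised (0.172%) and 11 lowered (0.172%), and 583 had an unadjusted p under 0.05. Leaving out 1 pool gave 5 to 38, the fewest without the third young control pool and the most without the first aged ABX pool. Without any filter on low values 1 gene passed.

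Ighd was lower in aged B cells as a whole. The young pools were at 3.06, 2.17, 2.21, 2.62, 3.62 and 2.79 and the aged pools at 1.30, 1.79, 1.08, 1.25, 1.91 and 1.27, with no overlap (log2 −0.90, SE 0.169, limma adjusted p = 0.0215). The adjusted p lay between 0.0531 and 0.0902 without young control pool 3, young ABX pool 2, aged control pool 3 or aged ABX pool 3. Beside it stand the 18.7 points more low-depth cells and 11.2 points fewer cluster 5 cells of the aged pools, whose part in the difference was not tested by itself. Among B cells of at least 2000 UMIs the Ighd difference was −0.56 (limma adjusted p = 0.213), and in cluster 5 without T marker cells −0.44 (SE 0.190, limma adjusted p = 0.427), where the pools overlapped. Ly6d, a surface protein of the lymphoid lineage, differed by −0.76 over all B cells (limma adjusted p = 0.00751), −0.44 at 2000 UMIs or more and −0.25 in the T-free cluster 5 cells (limma adjusted p = 0.365). In counts, 0 of 15 identity genes were raised and 2 lowered, and 0 of 12 follicular genes were raised and 1 lowered, with medians of −0.24 and −0.62 against 0.03 over all genes.

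Raised genes included Gzmk, Zbtb20 and Fcgr2b. Gzmk, a granzyme of T cells, was at 0 in 5 young pools and 0.00794 in the third ABX pool, and at 0.138 to 0.353 in aged pools (log2 1.76, limma adjusted p = 0.00190). It met the filter of a mean of at least 0.1 only through the aged pools. Cluster 5, which held the T marker cells counted above, had 74.2% of the Gzmk value summed over all B cells, and cluster 2 had 19.7%. The part of T marker cells in the Gzmk difference was not tested. Of 11 T cell markers tested 1 passed, and 10 had a difference above 0, as had 3423 of all 6394 genes (53.5%). Zbtb20 differed by 1.53 (limma adjusted p = 0.0166, and 0.0608 without the third aged control pool). Fcgr2b, the inhibitory Fc receptor of B cells, differed by 0.89 (limma adjusted p = 0.0267), and it lost its call without any of 6 pools, with adjusted p up to 0.103. Nrp2 and Klk8 were also raised, and Bambi, Cytip, Btg1, Stk17b and H3f3a lowered, with log2 changes of −1.23 to 1.32; for each of them, leaving out any of 5 or more pools ended the call.

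In cluster 5 alone 169 of 6117 genes (2.76%) passed with age, 156 of them raised. All 10 T cell markers tested were among the raised genes, beside the T marker cells counted above, so the comparison was repeated in the 268 cells without them. This subset was chosen after the data were seen. Of 5902 genes, 29 (0.491%) then passed in limma, 25 raised (0.424%) and 4 lowered (0.0678%), and 28 of the 29 were also called in all cluster 5 B cells. Leaving out 1 pool gave 9 calls (without the second young control pool) to 55 (without the first aged control pool). The median log2 difference over all genes was 0.19, in the direction of the aged cells' greater depth: median UMIs were 3623 to 4859 in young and 4775.5 to 8238 in aged pools. In all, 6 genes passed without each of the 12 pools in turn and had no overlap between ages: Apoe, Zbtb20, Tnfaip3 and Sp140 rose, and S100a8 and S100a9 fell.

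Apoe encodes a lipid carrier abundant in glia and macrophages and is on the age-associated B cell list. Its lowest, median and highest young pools were at 2.71, 5.52 and 6.97, and its aged pools at 9.89, 14.9 and 45.9 (log2 1.79, SE 0.213, limma adjusted p = 6.85e-06). The third aged control pool was the highest. In the same wells Apoe averaged 0.925 in young and 3.08 in aged CD8+ T cells and 7.23 and 14.6 in microglia. Its gene lies at chr7:19696244-19701310.

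Zbtb20 encodes a zinc finger repressor known in B-1, germinal centre and plasma cells. Young pools were at 0.412, 0.861 and 1.14 and aged pools at 1.40, 2.69 and 5.53 for the lowest, median and highest (log2 1.73, SE 0.273, limma adjusted p = 0.00102). CD8+ T cells averaged 0.575 in young and 1.01 in aged wells and microglia 1.21 and 1.47. The gene lies at chr16:42875689-43634392.

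Tnfaip3 encodes A20, a feedback inhibitor of NF-kB signalling. Young pools were at 0.176, 0.492 and 0.652 and aged pools at 0.938, 1.57 and 1.80 (log2 1.57, SE 0.275, limma adjusted p = 0.00233). Sp140, a nuclear body protein of lymphoid cells, was at 0.118, 0.342 and 0.475 in young and 0.700, 1.13 and 1.52 in aged pools (log2 1.53, SE 0.283, limma adjusted p = 0.00470). CD8+ T cells averaged 2.56 and 3.69 for Tnfaip3 and 0.387 and 0.450 for Sp140. The genes lie at chr10:19000910-19015410 and chr1:85587491-85645040.

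S100a8 and S100a9, the neutrophil alarmins, fell by 2.14 and 1.88 on the log2 scale (limma adjusted p = 0.00191 and 0.00102). S100a9 was at 1.00, 1.18 and 1.48 in young and 0.10, 0.319 and 0.440 in aged pools. Young values were also the higher ones in other types: S100a9 averaged 9.67 in young and 0.240 in aged CD8+ T cells, and S100a8 2.78 and 0.415 in microglia. A single young CD8+ T cell held 927 of S100a9, so that mean rests on it, while the gene was above 0 in 53.8% of young (interval 43.8 to 63.5%) and 19.8% of aged CD8+ T cells (interval 16.7 to 23.1%). The genes lie at chr3:90669071-90670034 and chr3:90692630-90695721.

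**Figure D5:**
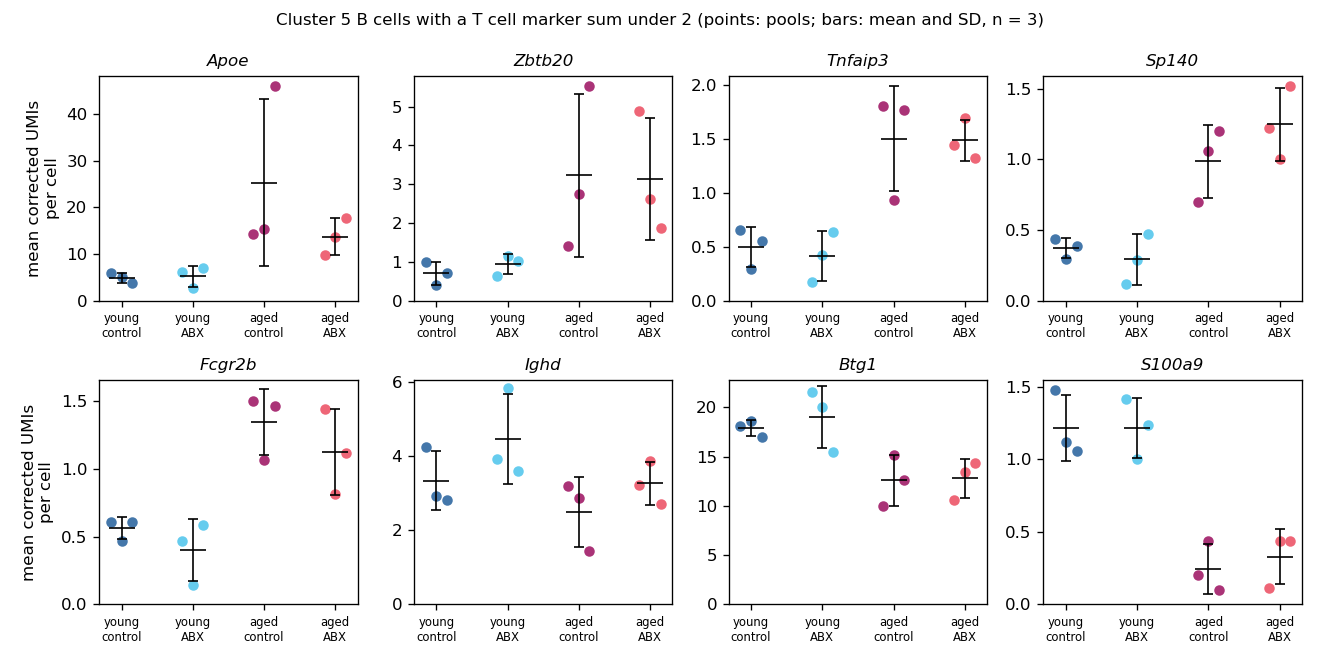
Mean corrected UMI value per cell (vertical, a separate linear scale per panel, from 0) of 8 genes in cluster 5 B cells with a T marker sum under 2, by group; points are pools, bars the mean and SD of 3 pools. Apoe, Zbtb20, Tnfaip3, Sp140 and Fcgr2b are higher and S100a9 and Btg1 lower in every aged pool than in any young pool, and the Ighd pools of the 2 ages overlap.

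Members of the B cell lists were also called. Fcgr2b was at 0.143 to 0.611 in young and 0.813 to 1.5 in aged pools (log2 1.25, SE 0.274, limma adjusted p = 0.0260; called without 6 of the 12 pools in turn). Mzb1, a chaperone of antibody assembly, differed by 0.92 (limma adjusted p = 0.0120) and lost its call without 1 pool. Cd72, an inhibitory coreceptor, Cd38, Nt5e, the MHC class II chain gene H2-Eb1 and Adgre1 passed by 0.95, 1.24, 1.91, 0.44 and 1.62, and each lost its call without 8 or 9 of the pools. Adgre1 is also on the macrophage and monocyte list, and the T-free cut removes cells by T cell markers only. Over all 318 cluster 5 B cells the microglia marker C1qa was above 0 in 213 (67.0%). Their macrophage and monocyte marker sum had a median of 3 and a highest value of 108. The part of such RNA in the differences with age was not tested. Btg1, an antiproliferative gene of resting lymphocytes, was at 15.4 to 21.6 in young and 10.0 to 15.2 in aged pools (log2 −0.54, limma adjusted p = 0.0120). In counts, 1 of 15 identity genes, 1 of 12 follicular, 2 of 12 marginal zone and B-1, 2 of 9 age-associated and 1 of 10 MHC class II genes were raised and none lowered, where 0.424% of all genes tested were raised and 0.0678% lowered. Their median differences were 0.06, −0.22, 0.44, 1.29 and 0.25, over 15, 12, 9, 5 and 10 members tested, against 0.19 over all genes. Of the identity markers Cd79a differed by 0.06, Cd79b by 0.12 and Ms4a1 by −0.03, and of the follicular genes Fcer2a by −1.0 (limma adjusted p = 0.277) and Cr2 by −0.98 (limma adjusted p = 0.290); none of these passed.

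With pool profiles scaled to the same sum 17 genes passed, 16 of them among the 29, and all 29 kept their direction. Restricted to cells of 3000 to 8000 raw UMIs, where pools held 4 to 57 cells and the median over all genes was −0.02, 4 genes passed: Apoe (log2 1.13, limma adjusted p = 0.00417), Zbtb20 (1.66, 0.0215), S100a8 (−2.21, 0.0101) and S100a9 (−1.84, 0.00603). All 27 of the 29 genes tested there kept their direction.

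Of 34 antibodies over all B cells, 3 (8.82%) passed with age in edgeR: CD335, CXCR4 and KLRG1, each at or near 0 tags in the young well. In the T-free cluster 5 cells 4 of 32 (12.5%) passed, 3 raised (9.38%) and 1 lowered (3.12%). Ly6C made up 4.06 to 5.28% of the tags of young pools and 0.626 to 4.00% of aged pools, with no overlap (log2 −0.90, SE 0.213, edgeR adjusted p = 0.0235). The lowest aged pool was the first aged ABX pool, where a single cell's CX3CR1 tags made up most of the total; without it the Ly6C difference was −0.93 (edgeR adjusted p = 0.0238). Without 7 other pools in turn its adjusted p was 0.0515 to 0.0857. Relative to all tags, CD38 differed by 0.52 and CD44 by 0.75 (edgeR adjusted p = 0.0478 each). In tags per cell both were lower in the aged well, where cluster 5 B cells held a median of 1030 tags of all antibodies against 4350 in the young well. CD38 was at 665 ± 47.0 in young and 186 ± 49.2 in aged pools, and CD44 at 84.7 ± 14.1 and 29.7 ± 14.8 (SD, n = 6 pools each). CD38 passed only without the third aged ABX pool and CD44 only without the second aged ABX or first aged control pool, of the 12 pools left out in turn. CD335 had 0 tags in the young cells.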

How the data were processed

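RNA, antibody and hashtag libraries of 12 pools were analysed from the authors' cell tables. Reads were handled with Cell Ranger 3.0.2 and Seurat 3.0.1 on mm10, per the submitters' processing notes. RNA values are a score: corrected UMI values that the authors deposited after SCTransform normalisation, per the file headers; their sum per cell equals the deposited corrected total in all 13052 cells. Antibody tags are counts per cell as the authors deposited them, not normalised. Cell types, clusters and hashtag calls are the authors' own; all 13052 cells were called singlets, and no doublet caller was run here. A barcode occurred in both wells 59 times.

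RNA was averaged per pool and tested with limma 3.58.1 (trended prior) on log2(mean + 0.1), so that changes of low genes are understated, for genes with a mean of at least 0.1 and pools of at least 10 B cells (5 in cluster 5). Tags summed per pool (at least 10) and cells per type were tested with edgeR 4.0.16 (quasi-likelihood; TMM factors for tags), in R 4.3.3. Age, 2 arm and interaction contrasts came from 4 group means in 1 fit, with Benjamini-Hochberg adjustment over all features and a threshold of 0.05. Single percentages were tested in R by exact permutation over all arrangements of the pools. DESeq2 1.42.0 was an alternative for counts. Scripts were tested on simulated data. Binomial intervals are Clopper-Pearson at 95%, and the limit for a count of 0 is 3 counts.

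In each contrast the text names at most 8 raised and 8 lowered genes, those of biggest change that were called and whose groups had no overlapping pools, or the 4 of smallest p if fewer than 4 passed; antibodies up to 6 likewise; against other types, the 20 genes of largest ratio at a level of at least 0.5 and the 6 antibodies of highest ratio. Depth classes used the same sign in every pool instead. Other named genes are members of 26 lists. The members and lists were chosen with earlier results of these data known, and the T-free subset, the depth window and the same-sum scaling of that subset after seeing the data. Some genes that the rule names are not reported here. Of the annotation's columns, 30 were not used.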

Additional observations from a re-analysis of the deposited data

Results flagged for a closer look

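For 5 genes that the naming rule or the gene lists hold, every ABX pool of one age lay above every control pool and every ABX pool of the other age lay below, over all B cells. None of the 5 differences between ages passed in limma, each with an adjusted p of 0.998. The share of all 6394 genes tested that show this pattern is not given here. The 5 are therefore described only, and no effect of antibiotics is read from them. Each value is the antibiotic difference in aged minus that in young mice, in corrected UMIs per cell.

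Bcl7a, a chromatin remodelling subunit, had a difference of −0.532: it was at 0.219, 0.217 and 0.167 in young control, 0.346, 0.385 and 0.302 in young ABX, 0.433, 0.483 and 0.596 in aged control and 0.0417, 0.0882 and 0.216 in aged ABX pools. Actn4, an actin crosslinker, had a difference of −0.559, with young control pools at 0.281, 0.0870 and 0.125 and young ABX pools at 0.389 to 0.538. Dynll1, a dynein light chain, had a difference of −1.49, with aged control pools at 2.27, 2.03 and 2.62 and aged ABX pools at 0.917, 0.941 and 1.86. Klk8, a secreted protease, had a difference of −0.263 at levels of 0 to 0.442. Runx2, a transcription factor of the runt family, went the other way with 0.612, at 0.625, 0.783 and 0.833 in young control and 0.206 to 0.538 in young ABX pools, and at 0 to 0.115 in aged control and 0.135 to 0.5 in aged ABX pools. The 19 cells of cluster 11, high in Siglech and Bst2, held 73.5% of the Runx2 value summed over all B cells, and numbered 2, 3 and 3 in young control, 3, 1 and 4 in young ABX, 0, 0 and 0 in aged control and 3, 0 and 0 in aged ABX pools.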

How the results depend on the processing

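Of the values that answer a comparison, 334 recomputed ones kept their direction and their side of the threshold (counts within 1.5 times), 33 moved, 12 reversed and 3 weakened. Of those for single genes and antibodies 1103 kept both, 178 weakened, 2 became stronger and 17 reversed. The cause of these changes was not tested, except where fewer pools or more genes enter by construction. Alternatives that use cluster 5, T-free cells or shared barcodes were chosen after seeing the data. No paired analysis was possible because the hashtag numbers of the pools name no shared animal or batch; between depth classes, where the pool is a block in both classes, 1627 genes passed with no replicate block. Pools of 13 to 126 B cells limit the precision of every value.

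The 22 genes called with age became 1 with no filter (more genes tested), 5 in control pools only, 8 in pools of at least 20 B cells, 41 in B cells of at least 2000 UMIs, 42 without barcodes found in both wells, 47 on the mean of log2(value + 1), 56 with pools weighted by cells, 169 in cluster 5 and 4 in T-free cells of 3000 to 8000 UMIs, and 5 to 38 without 1 pool. In that window 1 gene was called for antibiotics in aged mice, 1 over both ages, and C1qb turned to −0.085 in young mice. In T-free cells 0 genes were called in each antibiotic contrast. Leaving out 1 pool gave up to 2 in young mice (without young ABX 3), 10 in aged mice (without aged ABX 3; 5 without young ABX 2), 1 over both ages (without young ABX 1) and 11 for the difference between ages (without young ABX 2; 4 without aged ABX 3).

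The 3 antibodies called with age became 5 with DESeq2, 7 at 2000 UMIs or more and 13 in cluster 5, and 1 was called for antibiotics in young T-free cells. Between depth classes 736 genes passed with at least 10 cells in each class and 2 to 1448 without 1 pool. The 1 antibody became 0 at a threshold of 1500 UMIs, with 10 cells, without shared barcodes, and 0 to 1 without 1 pool.

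Antibody differences that reversed, in the order at least 2000 UMIs, cluster 5 and T-free, were −0.82, −0.028 and −0.48 for CD117 and 0.27, 0.28 and 0.23 for CD44 with antibiotics in aged mice. With antibiotics in cluster 5 and T-free cells CD103 was 0.13 and 0.15 in young mice and 0.67 and 0.035 over both ages; CD38 was 0.012 in aged cluster 5, and CD117 for the difference between ages was −0.0042 at 2000 UMIs or more. B220 with age was 0.11 in T-free cells. CX3CR1 without 1 pool ran from −0.41 to 3.98 in aged mice, −0.13 to 2.07 over both ages and −0.56 to 3.82 for the difference, lowest without aged ABX 1.

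The B cell share with age (0.21) was −0.38 among cells other than microglia, −0.026 at 2000 UMIs or more, −0.048 for cluster 5, and −0.17 to 0.63 without 1 pool. Without 1 pool it ran from −0.057 to 1.19 for antibiotics in young mice, −0.41 to 0.62 in aged mice and −1.20 to 0.40 for the difference. The low-depth percentage without 1 pool ran from 13.8 to 22.7 points with age, −6.83 to 15.5 for antibiotics in aged mice and −1.07 to 10.1 over both ages.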

Other observations

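Cluster 5, which held most of the labelled B cells, also held 25 cells with other labels: 11 CD8+, 9 Ly6CLow, 3 microglia and 2 BAM. All 25 had Cd79a above 0 and 14 had Ms4a1, and their median depth was 13571 raw UMIs.

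Jchain, the joining chain of secreted IgM and IgA, exceeded 20 in 2 cells labelled B cells. The cell of aged ABX pool 3 had Jchain at 46, the kappa constant gene Igkc at 1925, Ighm at 1164 and Xbp1, a transcription factor of secreting cells, at 6, with Igha at 0. The cell of aged control pool 3 had Jchain at 25, Igkc at 1152, Ighm at 312 and Xbp1 at 5, also with Igha at 0. Both lay in cluster 5 at 19290 and 29893 raw UMIs, and both had T cell marker sums, 15 and 22, above the limit of 2 used for the T-free cells.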
